A study of Mus musculus with 8 samples.

Results

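Gene expression was measured in the whole hippocampus of BTBR and C57BL/6J (B6) mice, an autism model strain and its control strain, and 76 of 41174 array probes were detected in B6 hippocampus on every array and in BTBR hippocampus on none. These 76 probes carry 76 different gene or transcript names out of 27373 on the array, and they are called B6-only probes below. They were chosen by a detection flag of the scanner software, which was 1 on all 4 B6 arrays and 0 on all 4 BTBR arrays when it asked whether a spot stood well above its local background. All animals were wild-type males of 5 months without drug treatment, each array held RNA of 1 sample with 1 dye, and the groups had 4 arrays each. BTBR and B6 are separate inbred strains, so the groups differ across the genome and not at a single locus. The opposite pattern, all 4 BTBR arrays and no B6 array, held for 33 probes with 31 names.

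The hippocampus is a cortical structure needed for forming memories, and BTBR mice are known for low sociability, repetitive behaviours and a missing corpus callosum. A gene can give several transcripts that differ in their exons and 3′ ends. An array probe reports the RNA that carries its own 60 bases, and different probes of a gene can report different parts of its RNA.

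The sequences below are those of the probes whose values the results turn on, read 5′ to 3′ from the array files, with positions on build mm9. For 6 probes with large strain differences, bases 16 to 45 of the 60 are shown in lower case. They comprise the probe without a gene name on chromosome 16 (chr16:5187250-5187309, plus strand) and probes named for Ckap4 (chr10:83990203-83990262, minus strand), Uhmk1 (chr1:172124611-172124670, minus strand), Trim12a (chr7:111448499-111448558, minus strand), Aqr (chr2:113927052-113927111, minus strand) and Me1 (chr9:86480552-86480611, minus strand).
A_52_P764117: ttcattcgggaagaaccacgttgttctttt
Ckap4: ctgaaagttgagaagatccatgaaaagatc
Uhmk1: acccatattcagtttctcttgattttctta
Trim12a: tcacttacatcaggtgggtaaagaccatgt
Aqr: tgtatgactttaataacaccagctaatttc
Me1: ggcgtttcgttgaaaattgcagtaaaggtg

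Next come 3 genes in which the B6-only probe has a near neighbour from the same gene. For Zfp458, a zinc finger gene, the B6-only probe (chr13:67357991-67358050, minus strand) and the second probe (chr13:67358022-67358081, minus strand) are printed whole, with the 29 bases they share in capitals. The B6-only probe has 1 reading frame without a stop codon, and that frame holds the spacing of the last cysteine and the histidines of a C2H2 zinc finger. For Bpnt1 and Whsc1, bases 16 to 45 of the B6-only probe and of the nearest other probe are given, which start 773 and 115 bases apart (chr1:187181308-187181367, plus strand and chr1:187180535-187180594, plus strand for Bpnt1, chr5:34237735-34237794, plus strand and chr5:34237620-34237679, plus strand for Whsc1).
Zfp458 B6-only probe: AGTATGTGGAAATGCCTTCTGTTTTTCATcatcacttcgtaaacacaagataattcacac
Zfp458 second probe: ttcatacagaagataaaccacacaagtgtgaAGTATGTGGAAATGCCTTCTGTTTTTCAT
Bpnt1 B6-only probe: tgaaaaagggttagtttcaaatgactgtcc
Bpnt1 other probe: ttaatactgattactaattgaacaattgga
Whsc1 B6-only probe: cctttccagaatcactgaagtcaaaaggaa
Whsc1 other probe: ttctgtaaggaacaccaagatgggactgct

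The arrays differed in how many probes they detected. Probes well above background made up 56.9% on B6 replicate 1 and 67.6% to 71.9% on the other B6 arrays, 61.9% on BTBR replicate 3 and 68.3% to 71.5% on the other BTBR arrays. Hippocampal markers were in place, with 6 of 6 genes of hippocampal subfields and 5 of 5 neuronal genes well above background on all 8 arrays. The summed level of 5 astrocyte markers ran from 16.31 to 16.40 (log2) in B6 and 15.99 to 16.09 in BTBR, that of 5 microglia markers from 14.87 to 14.96 in B6 and 15.08 to 15.36 in BTBR, and neither pair of ranges overlapped. The ranges overlapped for the markers of oligodendrocytes (18.50 to 18.65 against 18.21 to 19.08), choroid plexus (14.07 to 15.55 against 14.26 to 16.29), thalamus (13.68 to 14.16 against 13.97 to 16.46), meninges (13.003 to 14.24 against 12.98 to 14.96), blood (15.23 to 16.21 against 15.64 to 17.60) and pituitary (11.23 to 14.16 against 12.61 to 14.65). None of these markers is among the 76 names, the part of cell composition in the results was not tested, and in whole tissue fewer cells of a type and less RNA per cell cannot be told apart.

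Since the detection flag chose the probes, the strain difference of the B6-only probes is given as a description without a test. Differences are BTBR minus B6 means of log2 intensity after quantile normalization. The median over the 76 probes was -1.17, against 0.01 over the 27982 probes that passed the filter on dim and irregular spots, which all 76 passed. The difference was beyond -2 for 11 probes, between -1 and -2 for 38 and nearer to 0 than -1 for 27, and it ran from -4.31 to -0.19. Every B6 array lay above every BTBR array for 75 of the 76, where 7.27% of all probes that passed the filter show that order, which the choice of the probes largely fixes.

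A BTBR value below the detection limit is only a bound, so each fold is given as a lower limit by the floor of each array: the B6 mean against the BTBR mean, in which a value under the lowest detected probe of its array was raised to that level. The median of this fold was 2.13 over the 76 probes, and it ran from 1.13 to 19.6. The floors were 7.82 and 7.805 on BTBR replicates 2 and 4 but 6.204 and 6.173 on replicates 1 and 3, where undetected values therefore entered as measured. With the highest of these floors on every BTBR array, a setting chosen after the data were seen, the median was 1.996, the range 1.13 to 18.975, and no fold was smaller by more than 1.21 times. BTBR means of the 76 lay between 7.44 and 7.94, where spots of negative control probes had array medians between 7.48 and 7.57 and 95th percentiles between 7.62 and 7.86. The size of these differences changed with the processing. Median centring in place of quantile normalization gave a median of -1.16, and an offset of 1 in place of 50 gave -1.43. With the scanner's processed signal, scaled at the 75th percentile without the offset of 50, the median difference of the 76 was -4.39 and the median bound 2.64 on the log2 scale, against 1.09 with the main processing. In the matrix of log2 values that the authors deposited, the differences were smaller, with a median of -0.72, and those of Ckap4 and Uhmk1 were -2.67 and -2.40. The folds written with "at least" below use the floor of each array with the main processing, and are no bound for another floor or scaling. All 76 were lower in BTBR under each of the 6 scalings tried.

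The B6-only probe with the largest bound has no gene name on the array. Probe A_52_P764117 read 12.30, 11.89, 11.94 and 12.14 on the B6 arrays and 7.78, 7.77, 7.70 and 7.78 on the BTBR arrays, in order of replicate number here and below. On 3 of the 4 BTBR arrays the value lay above the 95th percentile of that array's negative controls. The probe was at least 19.6-fold lower in BTBR with this processing, and in the deposited matrix it differed by -3.57 on the log2 scale. The nearest probe of a named gene, 8619 bases away on the opposite strand, belongs to Nagpa, an enzyme that uncovers the mannose 6-phosphate tag of lysosomal enzymes, and it differed by 0.10 (limma, adjusted p = 0.465).

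Ckap4 encodes an endoplasmic reticulum membrane protein that anchors the organelle to microtubules. Its B6-only probe, the only one of the gene on the array, read 9.98, 11.38, 11.08 and 11.58 on the B6 arrays and 7.50, 7.43, 7.58 and 7.53 on the BTBR arrays, and was at least 10.1-fold lower in BTBR, or 9.09-fold with the highest floor. B6 replicate 1 was the lowest B6 array by over 1 log2 unit, and the B6 SD of 0.71 was the highest of the 76. Me1, cytosolic malic enzyme, which makes NADPH for fatty acid synthesis, had the same low array. The Me1 probe read 9.06, 10.05, 9.73 and 10.33 on the B6 arrays and 7.76, 7.70, 7.47 and 7.66 on the BTBR arrays and was at least 4.22-fold lower in BTBR. The array's annotation gives the record behind this probe as malic enzyme mRNA of a Mod-1 null mouse. The other Me1 probe, 5261 bases away, was well above background on all 8 arrays and stood at 12.39 ± 0.15 in B6 and 12.28 ± 0.14 in BTBR (SD, n = 4 each), a difference of -0.12 (limma, adjusted p = 0.614).

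Uhmk1 and Aqr both act on RNA splicing. Uhmk1, a kinase that phosphorylates splicing factors, read 10.66, 10.92, 10.81 and 10.99 on the B6 arrays and 7.81, 7.67, 7.84 and 7.72 on the BTBR arrays. The groups were over 2 log2 units apart, and the bound was at least 8.14-fold. A second Uhmk1 probe, 16738 bases away, was well above background on 2 B6 arrays and no BTBR array, at 8.01 ± 0.11 in B6 and 7.84 ± 0.06 in BTBR (SD, n = 4 each). Aqr, a helicase of the spliceosome, had a B6-only probe that read 10.55, 10.46, 10.31 and 10.29 on the B6 arrays and 7.90, 7.85, 8.18 and 7.71 on the BTBR arrays, at least 5.54-fold lower in BTBR. Both other Aqr probes were detected on all 8 arrays and differed by -0.30 (limma, adjusted p = 0.227) and -0.10 (limma, adjusted p = 0.524).

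Zbtb8os, a part of the tRNA ligase complex, read 10.07, 10.39, 10.05 and 10.46 on the B6 arrays and 7.81, 7.67, 7.62 and 7.65 on the BTBR arrays, with a bound of at least 5.58-fold. Its probe spans 1357 bases of the genome and so crosses an intron. Pcf11, a factor that cleaves the 3′ ends of mRNAs, also has a B6-only probe over an intron, with a difference of -1.09, while its other probes on all 8 arrays differed by -0.08 and -0.15 (limma, adjusted p = 0.696 and 0.273). Pus7l, a pseudouridine synthase-like gene, stood at 8.65 ± 0.14 in B6 and 7.62 ± 0.06 in BTBR (SD, n = 4 each), and its other probe was detected on 1 B6 array only. Nip7, which acts in assembly of the large ribosomal subunit, had a B6-only probe at -0.63 and another probe at -0.05 (limma, adjusted p = 0.788). Leo1, of the Paf1 complex that travels with RNA polymerase II, had a single probe with a difference of -1.36.

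**Figure D1:**
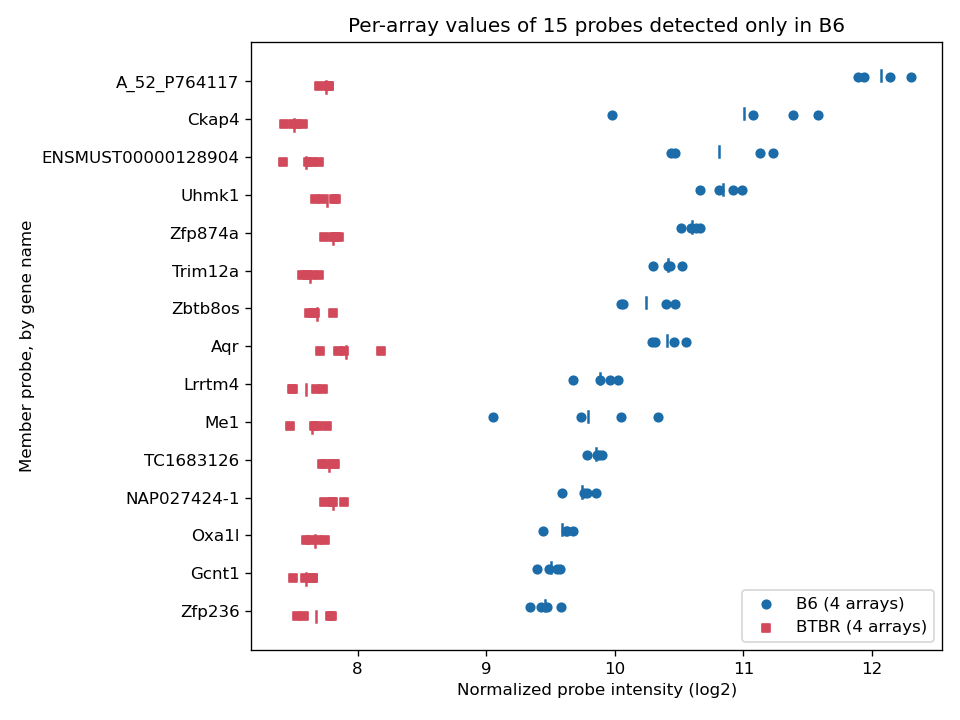
Normalized log2 intensity of the 15 B6-only probes with the highest B6 mean, in B6 (circles) and BTBR (squares), 1 point per array and a vertical tick at each mean of 4. In each of the 15 the groups are apart, and B6 replicate 1 is the low point for Ckap4 at 9.98 and Me1 at 9.06. Over all 76 B6-only probes, B6 replicate 1 is the highest B6 array for 37 and the lowest for 10.

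Lrrtm4, an adhesion protein of the postsynaptic side, read 10.02, 9.96, 9.88 and 9.68 on the B6 arrays and 7.49, 7.49, 7.73 and 7.68 on the BTBR arrays, at least 4.52-fold lower in BTBR. The other Lrrtm4 probe, 784731 bases away, was detected on no array of either strain. Sv2b, a glycoprotein of synaptic vesicles, had a B6-only probe at -0.94, and its other probes, 87506 and 88816 bases away and detected on all 8 arrays, differed by -0.33 and -0.26 (limma, adjusted p = 0.23 and 0.374). Caskin1, which binds the synaptic scaffold CASK, stood at 8.97 ± 0.22 in B6 and 7.63 ± 0.20 in BTBR (SD, n = 4 each) for the B6-only probe and differed by -0.10 for the other (limma, adjusted p = 0.656). The receptor Fzd2 of the Wnt pathway and the growth factor Pdgfd had B6-only probes with differences of -0.68 and -1.74. The other probe of Fzd2 was at 0.49 (limma, adjusted p = 0.1) and that of Pdgfd at -0.29 (limma, adjusted p = 0.0723). Enpp1, an ectoenzyme that makes pyrophosphate, read 9.42, 9.15, 9.14 and 8.96 on the B6 arrays and 7.78, 7.60, 8.12 and 7.67 on the BTBR arrays, and its other probe differed by 0.38 (limma, adjusted p = 0.151).

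Oxa1l inserts proteins into the inner mitochondrial membrane. Its B6-only probe read 9.44, 9.63, 9.68 and 9.62 on the B6 arrays and 7.74, 7.60, 7.69 and 7.63 on the BTBR arrays, at least 3.55-fold lower in BTBR. The probe 305 bases away was detected on all 8 arrays at 11.52 ± 0.10 in B6 and 10.83 ± 0.09 in BTBR (SD, n = 4 each) and fell by 0.68 (limma, adjusted p = 0.00053). A probe 1577 bases away differed by 0.22 (limma, adjusted p = 0.115). Bod1l, which protects replication forks, read 9.39, 9.35, 9.34 and 9.23 on the B6 arrays and 7.60, 7.71, 7.67 and 7.51 on the BTBR arrays and differed by 0.16 at its other probe (limma, adjusted p = 0.259). For Whsc1, now called Nsd2, a histone H3 lysine 36 methyltransferase, the B6-only probe stood at 8.43 ± 0.17 in B6 and 7.73 ± 0.09 in BTBR (SD, n = 4 each). The Whsc1 probe 115 bases away, printed above, stood at 8.87 ± 0.05 in B6 and 8.91 ± 0.05 in BTBR (SD, n = 4 each) and was detected on all 8 arrays, and the 5 other probes of Whsc1 together differed by -0.15 to 0.05.

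Another probe of the same gene gives a measurement beside that of the B6-only probe, from the same 8 arrays. Of the 76 names, 39 have 1 or more other probes, 70 in all, and 37 have none under the same name. Of the 70, 41 were well above background on all 4 BTBR arrays, 15 on 1 to 3 and 14 on none, and 9 of those 14 were detected on no array at all. By gene, 26 of the 39 had another probe detected on all BTBR arrays, 8 had one detected on some of them, and for 5 (Uhmk1, Lrrtm4, 3100003M19Rik, Pus7l and Ogg1) no other probe was detected in BTBR.

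The strain test was run over all 27982 probes that passed the filter, with limma and Benjamini-Hochberg adjustment at 0.05, and 53 of the 70 other probes, from 33 genes, were among them. The median difference of the 53 was -0.08, against -1.24 for the B6-only probes of the same genes, and 43 lay within 0.5 of 0. Of the 53, 12 were lower in BTBR (22.6%), against 4.3% of all probes tested, and 5 were higher (9.43%), against 3.31%. Rank product analysis, the method of the study, called 7 of the 53 lower (13.2%), against 2.29% of all probes, and 0 higher, against 1.66%, at a predicted share of false positives of 0.05; limma called 5 higher. A probe entered the test when 1 strain detected it on 3 or more arrays, so the direction of a probe that entered through 1 strain is largely fixed by that filter. Of the 12 lower probes, 4 entered through B6 alone (of 4930520O04Rik, Ankrd33b, Trim12a and A530054K11Rik), and of the 5 higher, 2 of Gcnt1 entered through BTBR alone, so these 6 are given below as values without a test. Of the 46 that entered through both strains, limma called 8 lower (17.4%), against 3.86% of all such probes, and 3 higher (6.52%), against 3.2%. The rank product called 4 of these 46 lower (8.7%), against 2.03% of all such probes. All B6 arrays lay above all BTBR arrays for 12 of the 46 (26.1%), against 6.82% of all such probes. The other probes come from the arrays that chose the genes, so the shares are set beside each other without a further reading. Leaving out B6 replicate 3 brought the limma calls from 17 to 11, and 8 were called when only probes detected on all 8 arrays were tested.

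For a few genes the other probe was also far lower in BTBR. Bpnt1, a nucleotidase that breaks down a by-product of sulfation, had a B6-only probe that read 9.095, 9.097, 9.05 and 9.17 on the B6 arrays and 7.58, 7.60, 7.66 and 7.91 on the BTBR arrays. Its second probe, 773 bases away, read 10.18, 10.25, 10.33 and 10.63 on the B6 arrays and 8.09, 8.33, 7.83 and 8.22 on the BTBR arrays, a difference of -2.23 (SE 0.13; limma, adjusted p = 8.93e-06). Neither probe had overlapping groups, although 3 BTBR arrays still detected the second. Acad9, which helps assemble respiratory complex I, differed by -1.12 at the B6-only probe and -1.19 at the other (SE 0.09; limma, adjusted p = 6.27e-05). The latter was detected on all 8 arrays at 12.72 ± 0.08 in B6 and 11.54 ± 0.17 in BTBR (SD, n = 4 each).

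The kinase gene Stk32a differed by -0.89 at the B6-only probe and by -1.25 at a probe 144 bases away (limma, adjusted p = 9.09e-06), while 2 further probes were detected on no array. In the noncoding transcript 4930520O04Rik, the B6-only probe differed by -1.46 and a probe 83 bases away read 11.24, 10.65, 10.80 and 10.66 on the B6 arrays and 7.96, 7.85, 8.07 and 7.74 on the BTBR arrays, a difference of -2.93, and was detected on 1 BTBR array. A further probe with that name maps 43887511 bases away and differed by -0.08. Ankrd33b had a B6-only probe at -1.23 and another probe, 30967 bases away, at -2.47, which 1 BTBR array detected, yet 2 probes nearer to the first differed by 0.04 and 0.06 (limma, adjusted p = 0.889 and 0.846).

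The 5 probes that were higher in BTBR lie in Gcnt1, Prune2, Tmem117 and A530054K11Rik. Gcnt1, which builds core 2 branches of O-glycans, read 9.49, 9.57, 9.39 and 9.55 on the B6 arrays and 7.59, 7.66, 7.50 and 7.65 on the BTBR arrays at the B6-only probe, at least 3.53-fold lower in BTBR. Its other probes, 2599 and 2619 bases away and so overlapping each other, differed by 0.43 and 0.31 and were detected on all 4 BTBR but only 2 B6 arrays. Prune2 differed by -1.17 at the B6-only probe and was higher by 0.49 at a probe 1872 bases away (limma, adjusted p = 0.0277). Tmem117, a membrane protein, read 9.08, 8.41, 8.52 and 8.46 on the B6 arrays and 7.52, 7.36, 7.60 and 7.35 on the BTBR arrays at the B6-only probe and was higher by 0.54 at a probe 379003 bases away (limma, adjusted p = 0.0364).

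In 2 genes the other probe overlaps the B6-only probe. The Zfp458 probes printed above share 29 bases: the B6-only probe read 8.44, 8.51, 8.54 and 8.55 on the B6 arrays and 7.73, 7.90, 7.77 and 7.98 on the BTBR arrays, and the second read 8.48, 7.94, 7.77 and 7.73 on the B6 arrays and 7.91, 7.91, 7.99 and 8.04 on the BTBR arrays. The second probe was detected on 1 B6 and 2 BTBR arrays, and its groups overlapped. Ogg1 encodes the glycosylase that removes 8-oxoguanine from DNA. Its B6-only probe stood at 8.56 ± 0.08 in B6 and 7.73 ± 0.01 in BTBR (SD, n = 4 each), and a probe that starts 20 bases away stood at 7.87 ± 0.11 in B6 and 7.66 ± 0.07 in BTBR (SD, n = 4 each) and was detected on no array.

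**Figure D2:**
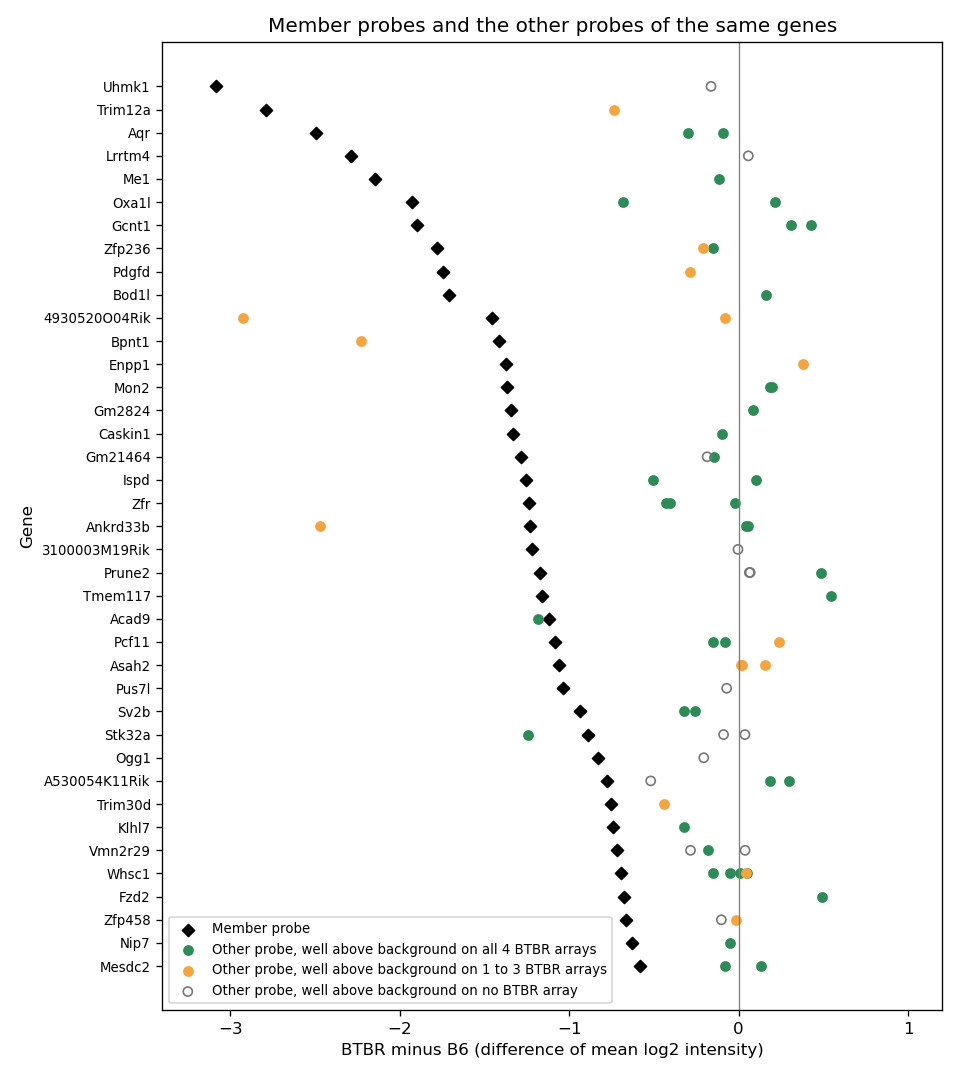
Difference of mean log2 intensity, BTBR minus B6, for the 39 genes with more than 1 probe, with the B6-only probe as a diamond and every other probe as a circle whose fill gives the number of BTBR arrays that detected it. Most circles lie near 0 (43 of the 53 tested are within 0.5), and 1 circle each of 4930520O04Rik, Ankrd33b, Bpnt1, Stk32a and Acad9 lies beyond -1.

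Positions on mm9 were given for 74 of the 76 probes, on all autosomes and not on X or Y, with 8 on chromosome 7, 6 on chromosome 11 and 37 on each strand. Within 1 Mb of each other, 15 B6-only probes formed 7 groups, of which 1 held 3 names. These counts were not set against the positions of all probes on the array, so nothing is read from them. That group covers chr13:67357991-67719583 and holds Zfp458, Zfp874a and A530054K11Rik, now called Zfp729a, all zinc finger genes of a tandem cluster. Zfp874a read 10.59, 10.63, 10.51 and 10.67 on the B6 arrays and 7.81, 7.85, 7.83 and 7.74 on the BTBR arrays, at least 6.86-fold lower in BTBR. A530054K11Rik read 8.51, 8.85, 8.52 and 8.42 on the B6 arrays and 7.77, 7.82, 7.81 and 7.80 on the BTBR arrays. Of its 3 other probes, 1, detected on 3 B6 arrays and no BTBR array, differed by -0.52, 1 was higher (0.30; limma, adjusted p = 0.048) and 1 differed by 0.18 (limma, adjusted p = 0.287).

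The other 14 probes in that stretch belong to 10 names, and 12 were tested. Zfp429 fell by 0.66 (limma, adjusted p = 0.00129) and Zfp459, which passed the filter through B6 alone and was detected on 1 BTBR array, differed by -0.38. Zfp87 rose by 0.64 (limma, adjusted p = 0.00106), as did 1 of 3 Zfp748 probes, by 0.52 (limma, adjusted p = 0.000467), and the other 8 tested probes passed the test in neither direction. Genes of this family are close copies, and how far a probe also binds neighbouring copies was not tested.

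**Figure D3:**
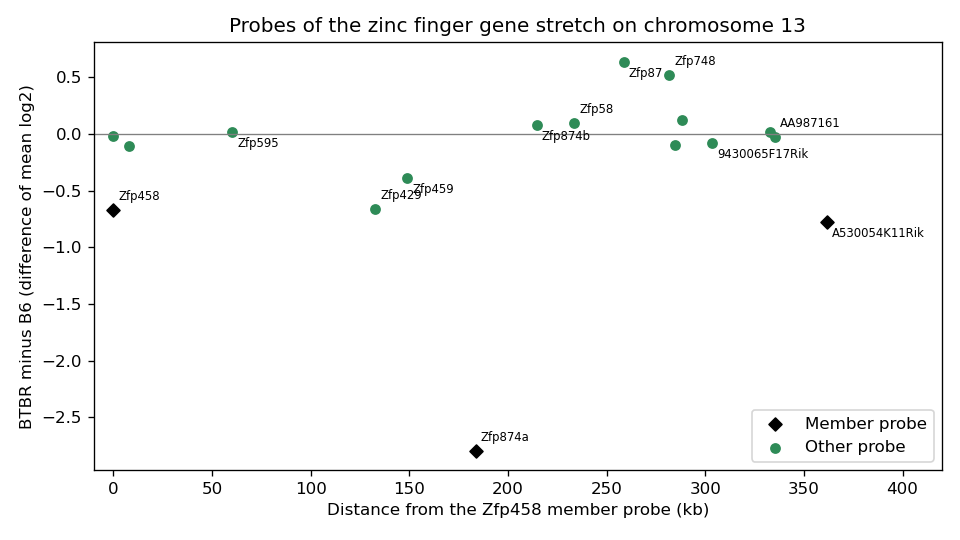
Difference of mean log2 intensity, BTBR minus B6, of every array probe in the zinc finger stretch of chromosome 13, against its distance in kb from the Zfp458 B6-only probe (diamonds, B6-only probes; circles, other probes). Zfp874a at -2.79 lies farthest from 0, and the circles run from -0.66 to 0.64.

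Trim12a and Trim30d, members of the tripartite motif family of ubiquitin ligases that act in innate immunity, lie together in chr7:111448499-111618915. Trim12a read 10.43, 10.41, 10.52 and 10.30 on the B6 arrays and 7.57, 7.60, 7.70 and 7.64 on the BTBR arrays, at least 6.46-fold lower in BTBR, and its other probe, detected on all B6 arrays and 1 BTBR array, differed by -0.73. Trim30d read 8.37, 8.45, 8.51 and 8.40 on the B6 arrays and 7.80, 7.71, 7.60 and 7.62 on the BTBR arrays, and its other probe fell by 0.44 (SE 0.10; limma, adjusted p = 0.0236). Between them lie Trim12c, Trim30b and Trim30a. The Trim12c probe differed by -0.01 and the 2 Trim30a probes by 0.00 and 0.01 (limma, adjusted p = 0.942, 0.997 and 0.981), and the Trim30b probe was too dim to be tested. The other groups were pairs: Pus7l with Tmem117, Prune2 with Gcnt1, Pcf11 with AK049930, Zbtb8os with AK077492, and C230086J09Rik with AK038440. In the Pcf11 stretch 8 other probes were tested and 0 were lower. The 2 that were higher, both of Ankrd42, rose by 0.63 and 0.35 (limma, adjusted p = 0.000619 and 0.0488). In the Pus7l stretch 5 other probes were tested and 0 were called. Between Zbtb8os and AK077492 lies Rbbp4, a histone chaperone, with 4 probes in the stretch. Of these, 1 fell by 0.93 (limma, adjusted p = 0.000108), and the others differed by 0.09, 0.09 and 0.09 (limma, adjusted p = 0.629, 0.521 and 0.555). The probe with adjusted p = 0.629 (limma) carries the name Rbbp4 but maps to the strand opposite to the rest. The cDNA AK040351 in the same stretch was higher in BTBR by 0.34 (limma, adjusted p = 0.0381).

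Of the 15579 names detected on all B6 arrays, the 76 make up 0.488%, a share at which most of the families below would hold about 1 name or none. Of the gene families counted by name, zinc finger genes made up 4 of the 76 names (1.15% of the 347 such names detected on all B6 arrays): Zfp236, Zfp458, Zfp874a and Zbtb8os, the last of which is named for its neighbour and is no zinc finger protein. Zfp236 read 9.34, 9.43, 9.47 and 9.58 on the B6 arrays and 7.53, 7.79, 7.58 and 7.80 on the BTBR arrays, at least 3.41-fold lower in BTBR, and its other probes differed by -0.15 and -0.21 (limma, adjusted p = 0.541 and 0.254). Ubiquitin ligases and proteases gave 3 of 287 (1.05%): Trim12a, Trim30d and Klhl7, an adaptor of a cullin ligase, at 8.41 ± 0.15 in B6 and 7.67 ± 0.08 in BTBR (SD, n = 4 each). Olfactory and vomeronasal receptors gave 1 of 50, Vmn2r29, at 8.55 ± 0.05 in B6 and 7.84 ± 0.05 in BTBR (SD, n = 4 each). Another Vmn2r29 probe, detected on all arrays, differed by -0.18 (limma, adjusted p = 0.131). The other Klhl7 probe, also detected on all arrays, differed by -0.32 (limma, adjusted p = 0.067). No histone, chemokine, MHC, interferon-induced, solute carrier, potassium channel, ribosomal protein or RNA polymerase gene, and none of ribosome assembly by the names listed, was among the 76, out of 38, 19, 28, 42, 267, 64, 164, 28 and 76 names detected on all B6 arrays. These counts go by the array's gene names, so ENSMUST00000138143, described below, is not in the interferon count and Nip7, described above, is not in that of ribosome assembly. The zinc finger count likewise leaves out A530054K11Rik. Zfr, a zinc finger RNA-binding protein whose name the pattern does not cover, differed by -1.24 at its B6-only probe, and 2 of its 3 other probes fell, by 0.41 and 0.43 (limma, adjusted p = 0.0429 and 0.00462).

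Many B6-only probes rest on transcripts without a settled gene. By the record that each probe was made from, 29 of 76 (38.2%) stand on a curated RefSeq mRNA, against 80.3% of the 23322 probes detected on all B6 arrays, and 32 (42.1%) stand on a cDNA clone record, against 10.5%. Names of the kind given to uncharacterized cDNAs or predicted genes made up 36 of the 76, or 1.38% of the 2607 such names detected on all B6 arrays. In the RefSeq gene list of GRCm38.p6, 45 of the 76 were found, 41 as protein-coding genes and 4 as long noncoding RNAs, and 4 carry another symbol today. The noncoding ones are 4930520O04Rik, Gm2824, C230035I16Rik and Ipw, an imprinted transcript of the Prader-Willi region, which stood at 8.29 ± 0.08 in B6 and 7.73 ± 0.08 in BTBR (SD, n = 4 each).

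For 22 of the 35 mapped names with a single probe, a probe with another name lay within 20 kb, 45 probes in all. Their median difference was 0.02 over the 36 tested, of which limma called 3 lower (8.33%, against 4.3% of all probes) and 4 higher (11.1%, against 3.31%). The counts go by the array's names, and 1 of the 3 lower probes is of Ifi203, the gene that the annotation also gives for the B6-only probe beside it. Another, of Krt12, passed the filter through B6 alone, so its value is given below without a test. Of the 34 that entered through both strains, 2 were called lower (5.88%, against 3.86% of all such probes). Of the same 34, 4 were called higher (11.8%, against 3.2%), and these lie beside AK031453 and AK038440 only. The transcript ENSMUST00000128904, an uncharacterized RIKEN cDNA, read 11.23, 11.13, 10.46 and 10.44 on the B6 arrays and 7.70, 7.65, 7.62 and 7.42 on the BTBR arrays, at least 8.44-fold lower in BTBR. A probe of the keratin gene Krt12, 8806 bases away on the opposite strand, read 9.97, 10.77, 9.64 and 8.99 on the B6 arrays and 8.90, 8.28, 8.03 and 7.83 on the BTBR arrays, a difference of -1.58, and was detected on 2 BTBR arrays. In both probes B6 replicates 1 and 2, which shared a slide, were the highest B6 arrays.

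The transcript ENSMUST00000138143, annotated as the interferon-activated gene Ifi203, stood at 8.56 ± 0.32 in B6 and 7.62 ± 0.04 in BTBR (SD, n = 4 each). Of the probes named Ifi203 near it, 1 was detected on no array and 1, 13169 bases away, fell by 1.47 (limma, adjusted p = 0.00047). AK031453 differed by -1.17, and 6355 bases away on its strand a probe of Ablim1, an actin-binding protein, was higher in BTBR by 2.08 (limma, adjusted p = 1.3e-05). The probe named AH010064, 6219 bases away on the same strand, was higher by 0.84 (limma, adjusted p = 0.00581), while 2 further Ablim1 probes differed by 0.03 and 0.15 (limma, adjusted p = 0.859 and 0.517). AK038440 differed by -0.86, and on the same strand the cDNA AK034162, 4253 bases away, fell by 0.54 (limma, adjusted p = 0.00811). Farther on that strand, the cDNA AK047681, 16966 bases away, rose by 0.89 (limma, adjusted p = 0.00273) and the protocadherin gene Pcdh9, 19165 bases away, by 0.77 (limma, adjusted p = 0.0034). Without a gene name or other probe near, TC1683126 stood at 9.86 ± 0.05 in B6 and 7.78 ± 0.05 in BTBR (SD, n = 4 each) and the unmapped NAP027424-1 at 9.75 ± 0.11 in B6 and 7.81 ± 0.06 in BTBR (SD, n = 4 each).

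The base composition of the B6-only probes was narrow. Their median GC content was 35.0%, with quartiles at 35.0% and 37.1% and a range of 26.7% to 45.0%, against a median of 41.7% and quartiles of 36.7% and 45.0% over all probes detected on the B6 arrays. The 33 probes detected only in BTBR had a median of 41.7%, and the median over all probes was 40.0%. Just outside the rule, the 32 probes detected on all B6 arrays and a single BTBR array had a median of 36.7%. A median below that of all probes was therefore not particular to the B6-only probes.

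Slides and single arrays were examined next. Each slide carried replicates 1 and 2, or 3 and 4, of both strains, and the median difference of the 76 probes was -1.25 on slide 1 and -1.14 on slide 2. All 76 were lower in BTBR on slide 1 and 75 on slide 2. A limma test between the slides called 0 of the 76 probes, and 0.0% of all probes tested, at an adjusted p of 0.05, and 3 of the 76 had an unadjusted p under 0.05. Over all probes tested, 14.2% had such an unadjusted p. The rule asked for the same flag on both slides, so the probes were chosen for agreement between slides and nothing is read from these counts. The B6 SD had a median of 0.14 and was above 0.4 for Ckap4, Me1, AK032581, ENSMUST00000128904 and AK045463. B6 replicate 1 was the highest B6 array for 37 of the 76 probes and the lowest for 10. Its lowest detected probe stood at 8.15, against 6.783, 7.759 and 6.796 on B6 replicates 2, 3 and 4. The rule asked for detection on B6 replicate 1, and the part of this floor in the choice of the probes was not tested.

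The number of B6-only probes depends on which arrays must pass as well as on how many. Without B6 replicate 1, the array that detected the fewest probes, 159 probes met the rule, and without any other single array between 76 and 95 did. The BTBR-only count rose from 33 to 82 without BTBR replicate 3, and lay between 33 and 45 without any other. Every count without an array is at least that with all 8, because a condition is dropped. Within slide 1 alone 96 probes met the rule, and within slide 2 alone 770. With a laxer flag, which asks only whether a spot's signal is positive and significant against background, 45 probes met it, of which 18 were among the 76, including Ckap4, Trim12a, Lrrtm4 and Gcnt1 but not A_52_P764117. All 76 pass the stricter flag on every B6 array, so the rest dropped out because some BTBR array carried the laxer flag. Among them are also Uhmk1, Zfp874a, Zbtb8os, Aqr and Me1. B6-only thus means not well above background in BTBR, and does not mean absent signal there.

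**Figure D4:**
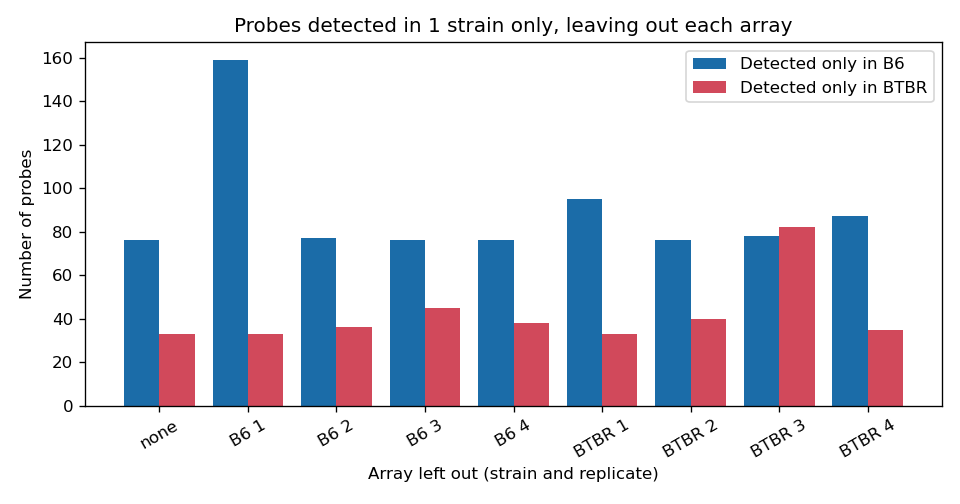
Number of probes detected on all arrays of 1 strain and on none of the other, using all 8 arrays (none) or omitting a given array. The B6-only count (blue) is 76 with all arrays and 159 without B6 replicate 1, and the BTBR-only count (red) is 33 and, without BTBR replicate 3, 82.

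At the edge of the rule, 32 probes were detected on all B6 arrays and exactly 1 BTBR array, and 84 on 3 B6 arrays and no BTBR array. By B6 mean, the member nearest the edge was AK045463, which read 8.65, 8.05, 7.89 and 7.67 on the B6 arrays and 7.93, 7.79, 7.92 and 7.88 on the BTBR arrays. Its groups overlapped, as in no other of the 76, and B6 replicate 1 was its highest array. Ipw and 5330421F21Rik, with the next lowest B6 means, differed by -0.56 and -0.53. Just outside, with 1 BTBR array, the highest B6 means were those of probes of 4930520O04Rik and Ankrd33b, given above, and of Prim2, Cpne4 and Eps8l1. Prim2, a subunit of DNA primase, read 10.79, 10.72, 10.65 and 10.79 on the B6 arrays and 8.14, 7.73, 7.40 and 7.73 on the BTBR arrays, and BTBR replicate 1 was its highest BTBR array. Cpne4, a calcium-dependent phospholipid-binding protein, differed by -1.49, and Eps8l1, a relative of the actin regulator Eps8, by -1.29.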

How the data were processed

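Hippocampal RNA of 4 B6 and 4 BTBR mice was labelled with Cy3 and hybridized to Agilent 4x44K mouse arrays, 8 arrays in all. Per the file headers, the authors' scanner files hold spot intensity values and other columns with detection and outlier flags, made with Agilent Feature Extraction 10.7.3.1 (the submitters' processing notes name 9.1). The authors also deposited a matrix of log2 values, whose column medians ran from 8.825 to 8.832 and whose exact scaling is not given in the sources used here. Their columns correlated with the values below at r = 0.998.

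Quantile normalization, the median over replicate spots and the rank product follow the study's methods, which name the preprocessing package's default parameters and not their values. The background column, floor, offset and filter below were set here, and limma was added. The median local background was taken from the mean spot intensity, with a floor of 0.5, and 50 was added before taking log2 and quantile normalizing the arrays. The offset understates the change of dim probes. Control spots were left out and replicate spots summarised by the median (a flag counted as 1 when its median was 0.5 or more). Probes well above background on 75% of the arrays of a strain and without an outlier flag were tested: 27982 probes. Strain and slide were tested with limma 3.58.1 (R 4.3.3) and Benjamini-Hochberg adjustment, and strain also by rank product with 100 permutations. Both were tested on simulated data. Lower limits of folds are log2(B6) minus log2(BTBR), with BTBR values raised to the lowest detected probe of that array, and, as an alternative added after seeing the data, to the highest of the BTBR floors.

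The members, gene lists and marker lists were chosen with earlier results of these data known. Named are the 15 members with the highest B6 mean, the 10 with the largest bound, those with the largest gap to another probe of the gene, those whose other probes were undetected in BTBR, groups of 3 within 1 Mb, members of the listed families, and the probes nearest the edge of the rule. Genes named beyond that rule were chosen after their values were seen. The number of arrays limits the precision. Nothing in the labels says how the replicates were drawn beyond their numbers, so p-values measure the spread between these samples. Probe positions are those of the array files (mm9), symbols and gene types are from RefSeq (GRCm38.p6), and no coordinates were converted. Alternatives were other backgrounds, scalings, flags and filters, replicate and slide blocks, and leaving out each array.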

Additional observations from a re-analysis of the deposited data

Results flagged for a closer look

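Among the 23 members examined array by array (46 groups of 4 arrays), 3 groups held an array whose gap to its nearest neighbour took more of the group's range than Dixon's critical value allows, and chance gives about 1 in 20. For A_52_P764117 it was BTBR replicate 3, at 7.70 (0.885 of the range), where the 4 BTBR arrays span less than 0.1 log2 units. For Tmem117 it was B6 replicate 1, at 9.08 (0.836). For Pus7l it was B6 replicate 4, at 8.86 (0.83). In none of the 3 did that array bring the strains into overlap.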

How the results depend on the processing

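The number of B6-only probes was 76 and became 45 with the flag for positive and significant signal, 314 when 3 of 4 B6 arrays and at most 1 of 4 BTBR arrays sufficed, and 770 within slide 2. Leaving out single arrays gave 76 to 159. All 76 were among the probes of every such setting, which is fixed in advance because an array left out only drops a condition. Their median difference of -1.17 became -4.39 with the processed signal scaled at the 75th percentile, -1.43 with an offset of 1 and -0.72 in the deposited matrix. Leaving out single arrays gave -1.22 to -1.14. The median bound of 1.09 (log2) became 2.64 with the processed signal and 1.31 with an offset of 1, was 0.997 with the highest BTBR floor on every BTBR array (added after seeing the data), and lay between 1.04 and 1.13 without single arrays. No scaling changed the direction of any of the 76. The limma calls among the other probes, 17, became 8 when only probes detected on all 8 arrays were tested, and lay between 11 (without B6 replicate 3) and 15 without single arrays. The rank product calls, 7, became 17 with limma in its place and 12 with the processed signal, and lay between 5 and 7 without single arrays. The other probes detected on all BTBR arrays numbered 41 to 58 under all alternatives, and slide calls among the 76 were 0 in each. The causes of these shifts were not tested, except that leaving out an array drops a condition of the rule and the test on fewer probes leaves fewer to call.

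Replicate numbers are shared between the strains, but arrays with the same number deviated together for numbers 2 and 4 (r = 0.51 and 0.39) and not for 1 and 3 (r = -0.142 and -0.101), so the main result has no replicate block. With the replicate block the median difference was -1.17 and the limma calls among the other probes numbered 12, with the slide block -1.17 and 16.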
